A study of Mus musculus with 62 samples.

Results

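Acute ethanol was compared with acute saline in the ventral hippocampus (vHPC). The comparison rests on 6 RNA-seq libraries, 3 from acute ethanol mice (replicates 3, 4 and 5) and 3 from acute saline mice (replicates 2, 4 and 6), out of 62 libraries in the whole series. Members were the libraries that the labels give as acute vHPC. Each library came from 1 mouse. All mice were male C57BL/6J mice aged 8 to 10 weeks. Acute ethanol mice received 1 i.p. injection of 2 g/kg ethanol in saline, acute saline mice received 1 injection of saline, and both were killed 4 h later. Brains were snap-frozen and vHPC was punched from frozen coronal slices, so a punch can carry a variable share of neighbouring tissue. All 6 libraries were made with the same strand-specific kit in 1 batch. Chronic ethanol and chronic saline vHPC libraries (3 each, 1 injection a day for 10 days) and acute dorsal hippocampus (dHPC) libraries (4 ethanol and 3 saline, another library kit and sequencer) were used only to set the acute vHPC values in context. Gene counts summed to between 14426328 and 14899467 per acute vHPC library, and levels are given as CPM, counts scaled to library size after TMM normalization.

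The hippocampus is a chain of neuron fields. Granule neurons of the dentate gyrus excite pyramidal neurons of CA3, which excite those of CA1, and each field has its own marker genes. The thalamus lies close to the hippocampus and its relay neurons express genes such as Tcf7l2 that hippocampal pyramidal neurons use little. Ethanol activates the hypothalamic-pituitary-adrenal axis, and the corticosterone it releases acts through the glucocorticoid receptor on genes such as Fkbp5, Sgk1 and Tsc22d3. Metallothioneins are small cysteine-rich proteins that bind zinc and copper, and the genes Mt1 and Mt2 respond to metals and to glucocorticoids.

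The mix of neuron markers differed between the groups. Thalamic markers were lower and dentate granule and CA1 markers were higher in the acute ethanol libraries, and CA3 markers were lower. All gene lists used here were written with earlier results of these data known. Shares of their members set beside shares of all genes therefore describe the lists and test nothing. The summed level of the 10 thalamic markers was 932, 244 and 166 CPM in acute saline 2, 4 and 6, and 81.2, 247 and 77.3 CPM in acute ethanol 3, 4 and 5. Acute saline 2 stood far above the other libraries, and acute ethanol 4 lay within the saline range, so the groups overlapped. All 10 members had a negative log2 fold change, with a median of -1.77, against -0.004 over all 19916 genes tested. No gene, in this list or elsewhere, passed an FDR of 0.1 in edgeR's quasi-likelihood test, in which 2374 genes (11.9%) had an unadjusted p below 0.05. DESeq2's Wald test called 578 of the 19916 genes at that FDR (2.9% of genes), 334 higher (1.68%) and 244 lower (1.23%) with ethanol, and 2 of the 10 thalamic markers were among the lower ones.

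Tcf7l2, a transcription factor of thalamic neurons, was at 71.2, 39.7 and 20.5 CPM in acute saline and 5.81, 15.98 and 3.07 CPM in acute ethanol. The groups did not overlap, and the log2 fold change was -2.40 ± 0.59 (SE; DESeq2 FDR 0.078). Lhx9, a LIM homeobox gene of the thalamus, was at 20.3, 21.4 and 17.2 CPM against 14.9, 11.6 and 13.5 CPM, a log2 fold change of -0.56 ± 0.15 (SE; DESeq2 FDR 0.0704). Gbx2, a homeobox gene of developing thalamus, was at 2.01, 4.10 and 1.14 CPM in acute saline and at 0, 0.133 and 0 CPM in acute ethanol. Its counts were too low to give a useful fold change. Without acute saline 2 the list median was -0.52, and without acute ethanol 4 it was -2.57.

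The 7 dentate granule markers summed to 347, 309 and 128 CPM in acute saline and 485, 409 and 587 CPM in acute ethanol. Every acute ethanol library was above every acute saline library, and acute saline 6 was the lowest of all. All 7 had a positive log2 fold change, with a median of 0.83, and 6 of the 7 did not overlap between groups, where 9.2% of all genes were higher without overlap. The unadjusted edgeR p was below 0.05 for 5 of the 7, against 6.25% of all genes in that direction. Prox1, the transcription factor that specifies granule neurons, was at 114, 93.3 and 39.2 CPM in acute saline and 145, 122 and 170 CPM in acute ethanol. Tdo2, which encodes tryptophan dioxygenase and marks mature granule neurons, was the only member called by DESeq2 (1.68% of all genes called higher). Tdo2 was at 3.62, 4.89 and 2.13 CPM in acute saline and 7.47, 7.72 and 10.2 CPM in acute ethanol, a log2 fold change of 1.25 ± 0.30 (SE; DESeq2 FDR 0.0138).

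The 6 CA1 markers summed to 226, 228 and 443 CPM in acute saline and 578, 381 and 751 CPM in acute ethanol. Acute saline 6 lay above acute ethanol 4, so the groups overlapped. DESeq2 called 2 of the 6 as higher (1.68% of all genes). Wfs1, which encodes an endoplasmic reticulum membrane protein abundant in CA1, was at 63.9, 63.5 and 35.6 CPM against 102, 121 and 126 CPM, and Man1a, a Golgi mannosidase, was at 41.5, 32.7 and 39.6 CPM against 68.5, 53.9 and 77.9 CPM. The 7 CA3 markers summed to 499, 545 and 561 CPM in acute saline and 432, 422 and 431 CPM in acute ethanol, with no overlap, and all 7 had a negative log2 fold change (median -0.33). DESeq2 called 3 of them, Bok, Cpne4 and Nectin3, as lower (1.23% of all genes). Rgs14, a signalling regulator enriched in CA2, was called higher (1.68% of all genes), but the median of the 5 CA2 markers was 0.01.

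Libraries also differed in tissue from outside the hippocampal neuron fields. Striatal projection neuron markers summed to 952 CPM in acute ethanol 4 and to between 178 and 372 CPM in the other 5 libraries. Choroid plexus markers summed to 2453 CPM in acute saline 2 and 2029 CPM in acute ethanol 4, and to between 81.6 and 576 CPM in the rest. Myelin markers were lowest in acute saline 6, acute ethanol 5 and acute ethanol 3, at 2587, 3291 and 4077 CPM, and lay between 7776 and 9441 CPM in the other 3 libraries. None of these 3 lists separated the groups, and none held a gene called by DESeq2 (2.9% of all genes). The blood markers, 4 hemoglobin genes and Alas2 of heme synthesis in red cells, were lower in acute ethanol, with a median log2 fold change of -0.84 over the 5 genes, all 5 with an edgeR p below 0.05 (5.67% of all genes in that direction), but every member overlapped between groups. Without acute saline 6 the list median was -0.44, and over the other single-library omissions it ran down to -1.14. The paired alpha and beta hemoglobin genes are near-identical copies that can share reads. Hbb-bs was at 143, 256 and 396 CPM in acute saline and 146, 188 and 110 CPM in acute ethanol.

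The 4 markers of the ventral pole did not move together. Their sum was 63.1, 55.3 and 188 CPM in acute saline and 138, 137 and 110.5 CPM in acute ethanol, and the groups overlapped. The median log2 fold change was -0.63, and -0.01 without acute saline 6. Ccn3, a secreted matricellular protein, was at 14.5, 14.2 and 116 CPM in acute saline and 103, 98.2 and 88.5 CPM in acute ethanol, low in acute saline 2 and 4 and high in acute saline 6. Nr2f2, a nuclear receptor enriched ventrally, was at 38.0, 26.2 and 38.3 CPM in acute saline and 23.2, 19.4 and 16.5 CPM in acute ethanol, with no overlap and a log2 fold change of -0.79 ± 0.18 (SE; DESeq2 FDR 0.00842). The 3 dorsal pole markers, Spink8, Lct and the CA1 marker Wfs1, summed to 100, 89.9 and 54.9 CPM in acute saline and 164, 161 and 196 CPM in acute ethanol, without overlap. All 3 had a positive log2 fold change (median 1.09), and 2 were higher without overlap (9.2% of all genes). DESeq2 called 1 of them, Wfs1 (1.68% of all genes). Lct, which encodes lactase and is enriched in the dorsal pole, was at 31.5, 21.4 and 6.39 CPM in acute saline and 52.2, 33.8 and 57.3 CPM in acute ethanol. Acute saline 6 was the lowest in Lct. Normalized with the dHPC libraries, Nr2f2 was at 16.7 to 38.7 CPM in vHPC and 8.99 to 17.9 CPM in dHPC, and Lct was at 6.46 to 57.8 CPM in vHPC and 44.4 to 72.4 CPM in dHPC. On that scale Ccn3 in acute saline 2 and 4, at 14.8 and 14.3 CPM, lay below every dHPC library (25.1 to 91.1 CPM), and Trhr, a receptor for thyrotropin-releasing hormone, was at 0.41 CPM in acute saline 2, inside the dHPC range of 0.17 to 1.51 CPM. Ccn3 in acute saline 2 and 4 and Trhr in acute saline 2 thus did not stand above dHPC. Other ventral markers did, as Nr2f2 (38.7 and 26.5 CPM) and Dcn (10.4 and 12.2 CPM) in acute saline 2 and 4 lay above every dHPC library. The same held for Trhr in acute saline 4 (2.95 CPM). Levels in vHPC and dHPC come from different kits and sequencers, whose part in these level comparisons cannot be told apart from region. In bulk tissue, fewer cells of a type and less RNA per cell cannot be told apart, and where along the hippocampus each punch was taken cannot be told apart from the treatment.

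**Figure D1:**
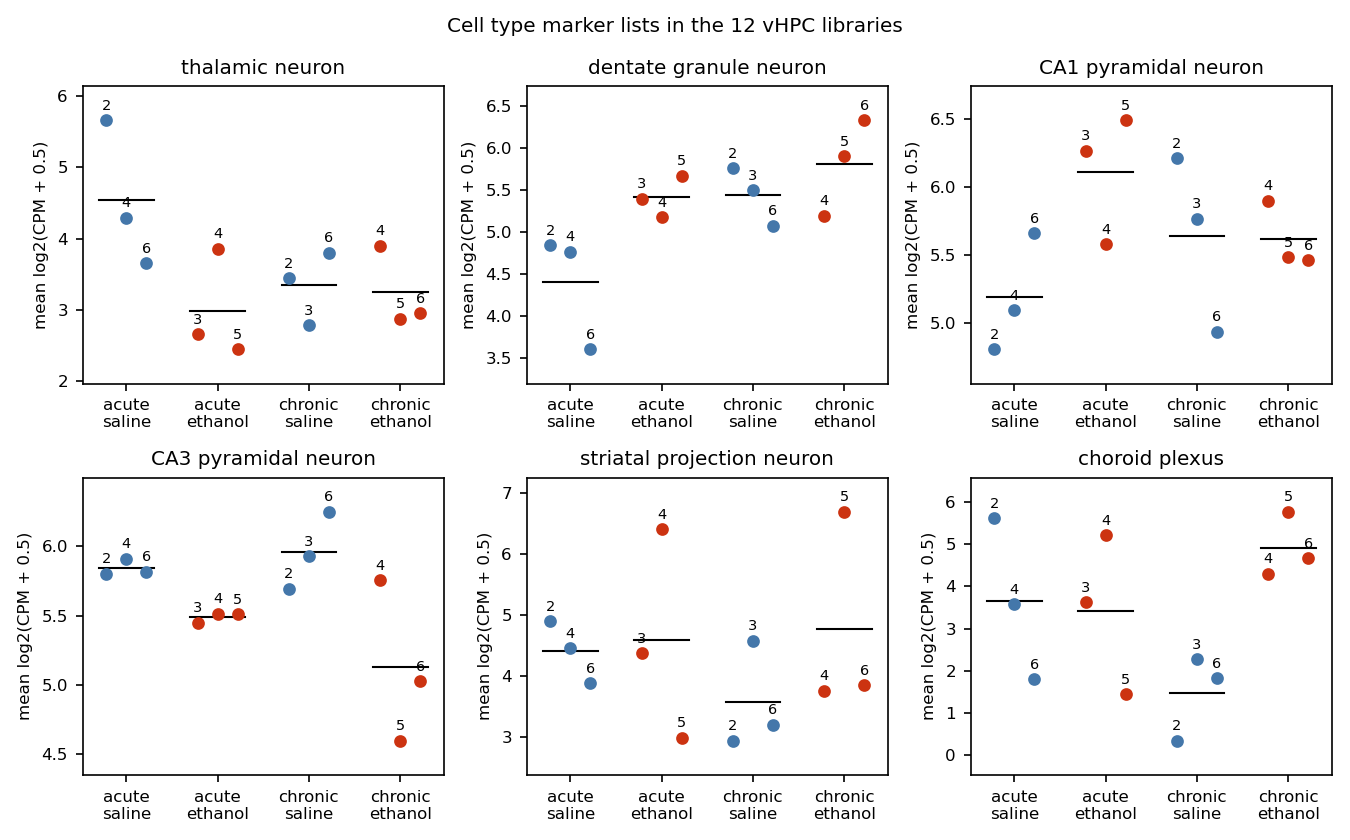
Mean log2(CPM + 0.5) of 6 cell type marker lists (y axis) in the 12 vHPC libraries, grouped on the x axis by paradigm and treatment; each point is 1 library with its replicate number and the black line is the group mean. Thalamic levels are highest in acute saline 2 and dentate levels lowest in acute saline 6, while striatal levels are high in acute ethanol 4 and chronic ethanol 5.

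Of the 10 genes with the lowest edgeR p-values, 9 were higher with ethanol. C1ql3, a secreted synaptic C1q-like protein, was at 58.1, 65.1 and 60.9 CPM in acute saline and 127, 103 and 140 CPM in acute ethanol, with means of 61.4 ± 3.5 and 123 ± 18.8 (SD, n = 3 each). The log2 fold change was 1.00 ± 0.12 (SE), with an edgeR FDR of 0.171 and a DESeq2 FDR of 1.1e-08. Slc24a4, a potassium-dependent sodium-calcium exchanger, was at 19.3, 22.7 and 16.03 CPM against 37.2, 45.9 and 44.1 CPM. Smad3, a transducer of TGF-beta signals, was at 39.2, 54.7 and 40.4 CPM against 81.2, 80.7 and 80.9 CPM.

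Kcnj4, an inward rectifier potassium channel, was at 36.8, 44.97 and 41.8 CPM against 73.1, 74.8 and 66.4 CPM. Bcl11b, a zinc finger transcription factor of dentate and striatal neurons, was at 89.3, 76.2 and 88.5 CPM against 172, 138 and 219 CPM. The other genes higher with ethanol were Lingo3, Dgat2, Marcksl1 and Lzts3, with log2 fold changes of 0.82, 0.99, 0.56 and 0.59. Elavl2, a neuronal RNA-binding protein, was the only 1 of the 10 that was lower, at 106, 100 and 96.8 CPM in acute saline and 63.8, 56.3 and 66.9 CPM in acute ethanol (log2 fold change -0.70 ± 0.09, SE). None of the 10 overlapped between groups, all 10 had the same edgeR FDR of 0.171, and DESeq2 called all 10.

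**Figure D2:**
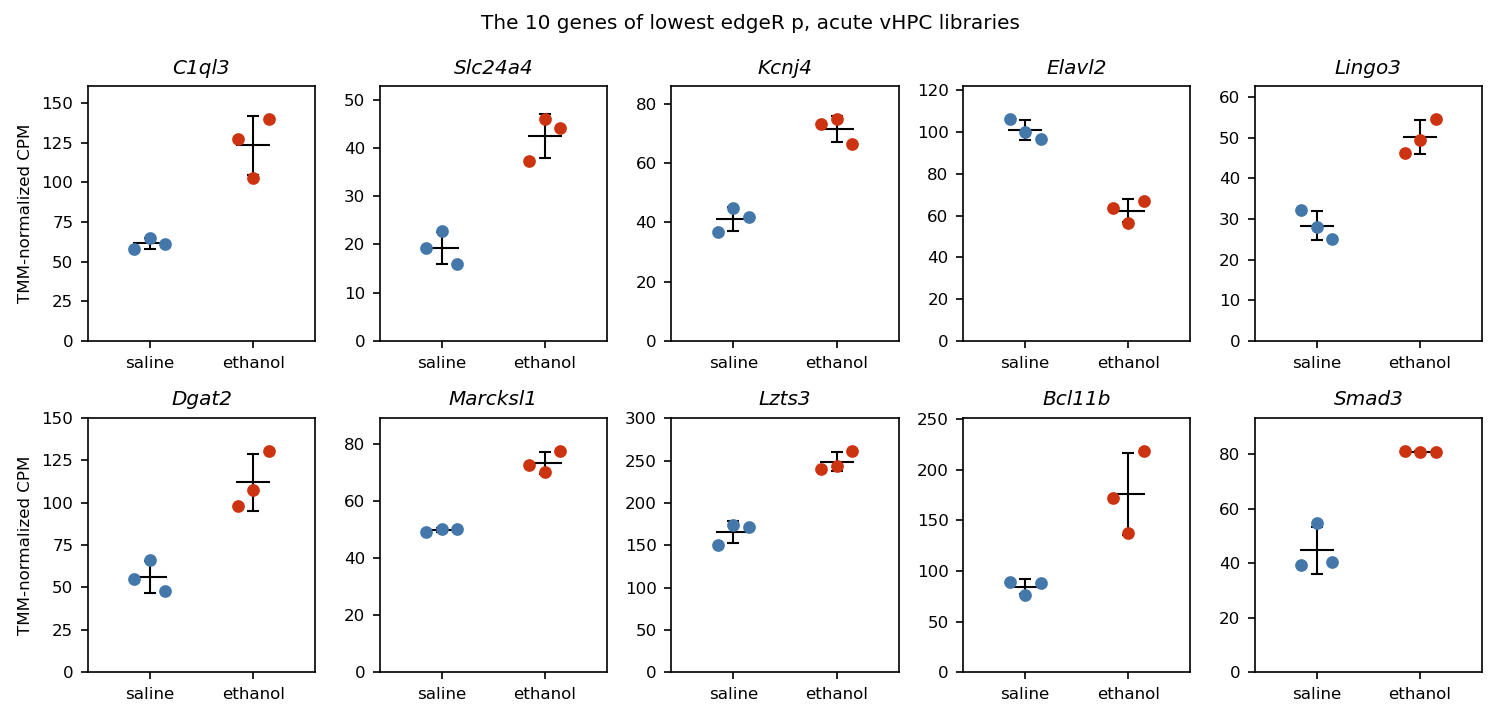
TMM-normalized CPM (y axes, from 0) of the 10 genes of lowest edgeR p in the 3 acute saline (blue) and 3 acute ethanol (red) vHPC libraries; points are libraries, bars the mean and SD. In each panel the groups are apart, as for C1ql3 at 58.1 to 65.1 against 103 to 140 CPM.

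The largest differences by size among the DESeq2 calls were mostly in genes of low level. Ahnak2, a very large scaffold protein, was at 8.32, 2.91 and 10.9 CPM in acute saline and 0.969, 1.86 and 0.279 CPM in acute ethanol (log2 fold change -2.81 ± 0.64, SE; DESeq2 FDR 0.000519). Pvalb, the calcium buffer of fast-spiking interneurons and of some thalamic neurons, was at 69.4, 37.1 and 28.5 CPM against 17.99, 15.4 and 17.6 CPM, a log2 fold change of -1.41 ± 0.29 (SE; DESeq2 FDR 0.000179). Pvalb was the only DESeq2 call among 8 interneuron markers (1.23% of all genes called lower), whose median was 0.00. Beside Tcf7l2, the other large falls by DESeq2 were Irag1, Car8, Spp1, Cbln2, Ifi203, Arhgap18 and Adamts15, with log2 fold changes from -2.02 to -1.31. Spp1 encodes the secreted phosphoprotein osteopontin and Cbln2 a synaptic organizer.

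Among the largest rises by DESeq2, Ryr1, a calcium release channel, was at 14.2, 12.6 and 19.7 CPM against 34.9, 29.7 and 41.3 CPM. Dclk3, a doublecortin-like kinase, was at 15.4, 14.9 and 8.80 CPM against 25.7, 36.2 and 31.4 CPM. Slc26a10, Thbs4, Krt9, Tdo2, Alox12b, Ndst4 and Slc24a4 were also among them, with log2 fold changes from 1.13 to 1.39.

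The number of DESeq2 calls turned on single libraries. It was 1465 without acute saline 6, and 117, 181, 276 and 300 without acute ethanol 5, acute ethanol 3, acute saline 4 and acute saline 2. Without acute ethanol 4 it was 654. The edgeR test, which called 0 genes with all 6 libraries (2374 at an unadjusted p below 0.05), called 301 without acute saline 6, 2 without acute ethanol 4 and 0 in the other 4 omissions.

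The DESeq2 calls followed the dentate and thalamic marker levels in libraries that the comparison did not use. Over the 6 chronic vHPC libraries, the correlation of each gene with the dentate level had a median of 0.65 over 333 genes called higher and of -0.68 over 242 called lower, against 0.05 over all 13388 genes with a mean of at least 50 counts. A correlation above 0.5 was found in 59.8% of the genes called higher, 1.65% of those called lower and 23.4% of all genes. With the thalamic level, the medians were -0.38, 0.53 and -0.02. These values describe 6 libraries that share kit and batch, and members of both lists were left out. Of these libraries 3 came from chronic ethanol mice, and all 7 dentate markers had a positive log2 fold change with chronic ethanol (median 0.41). The correlations were not taken within treatment, and the part of ethanol in them was not tested.

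A fit over all 12 vHPC libraries with the mean log2 CPM of the thalamic and of the dentate list as covariates was set beside the comparison. Over the 578 DESeq2 calls, the median absolute log2 fold change was 0.54 without and 0.24 with the covariates, while in the 12-library fit without covariates it was 0.54. The sign was kept by 491 of the 578, and 255 kept at least 0.5 of their size. C1ql3 went from 1.00 to 0.07 ± 0.25 (SE), Elavl2 from -0.70 to -0.02 ± 0.33 and Ahnak2 from -2.81 to -0.30 ± 0.74. The covariate fit was less precise, with a median SE of 0.213 against 0.138 for genes with at least 50 counts, and the dentate level did not overlap between the acute groups. In it edgeR called 0 of 20618 genes, with 701 at an unadjusted p below 0.05 (3.4% of genes), and DESeq2 called 1 (0.00485%), Sgk1.

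**Figure D3:**
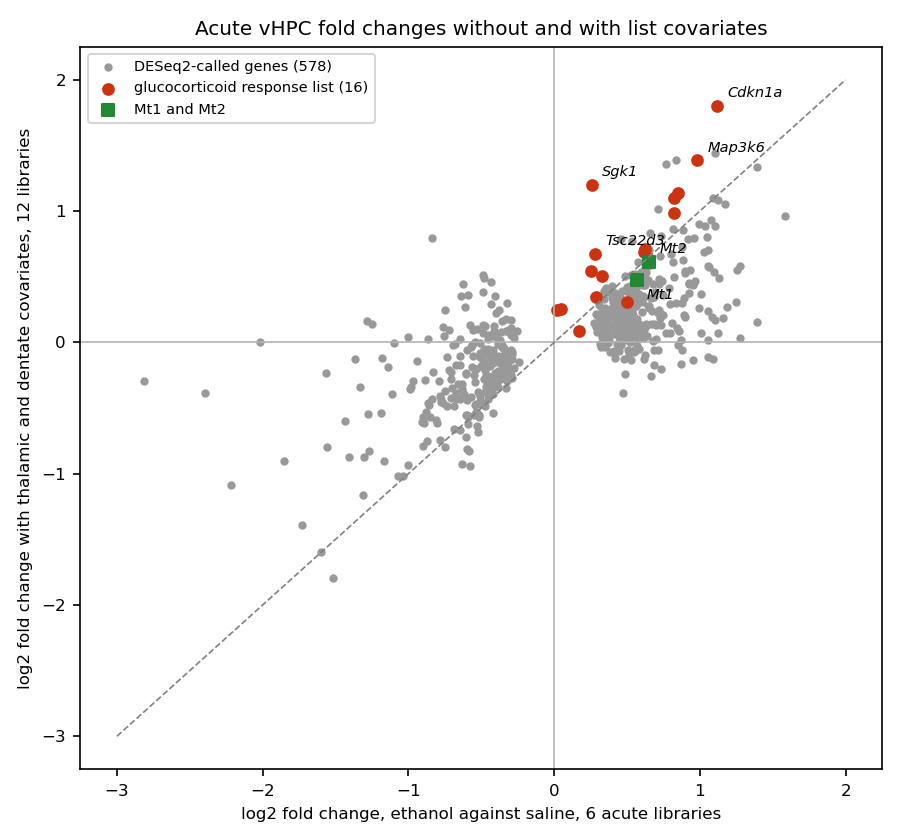
Log2 fold change of acute ethanol against acute saline in vHPC from the 6 acute libraries (x axis) and from the 12-library fit with thalamic and dentate covariates (y axis); grey points are the 578 DESeq2-called genes, red points the glucocorticoid response list, green squares Mt1 and Mt2, and the dashed line marks equal values. Most grey points lie nearer to 0 on the y axis, at a median absolute value of 0.24 against 0.54, while Mt2 is at 0.61 against 0.65 and Sgk1 at 1.20 against 0.26.

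Glucocorticoid-responsive genes were higher in acute ethanol libraries, and were also higher with the covariates. All 16 genes of the list had a positive log2 fold change, where 49.4% of all genes did, with a median of 0.41. Their summed level was 803, 697 and 798 CPM in acute saline and 923, 1026 and 960 CPM in acute ethanol, so every ethanol library was above every saline library. Of the 16, 8 were higher without overlap between groups (9.2% of all genes) and 8 were higher at an edgeR p below 0.05 (6.25%). DESeq2 called 5 as higher (1.68% of all genes). With the covariates the median was 0.68 and 9 of the 16 were higher at p below 0.05, against 1.7% of all genes in that direction. The list median ran from 0.29 to 0.54 over the single-library omissions. Because this list was written with earlier results of these data known, its counts here and in the other comparisons are a description only.

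Fkbp5 (chromosome 17, 28618068 to 28736498, minus strand, GRCm39) encodes a co-chaperone of the glucocorticoid receptor and is one of its most responsive targets. Fkbp5 was at 61.5, 66.8 and 89.0 CPM in acute saline and 97.3, 110 and 126 CPM in acute ethanol, and the groups did not overlap. The log2 fold change was 0.62 ± 0.15 (SE; DESeq2 FDR 0.0138), and 0.69 ± 0.20 with the covariates (unadjusted p = 0.0045 in edgeR's test across all genes). Zbtb16, a zinc finger transcription factor, was at 54.9, 61.1 and 75.7 CPM against 82.3, 82.6 and 106 CPM. Arrdc2, an arrestin-domain protein, was at 14.4, 12.9 and 10.6 CPM against 17.5, 25.97 and 23.6 CPM.

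Hif3a, a hypoxia-inducible factor subunit, was at 9.12, 5.62 and 7.38 CPM against 12.4, 10.5 and 17.0 CPM, and Map3k6, a stress kinase, was at 2.15, 3.50 and 3.69 CPM against 5.95, 6.66 and 5.85 CPM. These were the other DESeq2 calls of the list, with log2 fold changes of 0.50, 0.82, 0.85 and 0.98 for Zbtb16, Arrdc2, Hif3a and Map3k6. Pdk4, which encodes a kinase that restrains pyruvate oxidation, was at 9.80, 7.27 and 7.38 CPM against 11.5, 13.7 and 12.4 CPM without overlap, and its DESeq2 FDR was 0.102.

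Other well-known targets overlapped between the groups. Sgk1, a kinase induced by glucocorticoids, was at 106, 65.4 and 73.9 CPM in acute saline and 94.7, 119 and 79.8 CPM in acute ethanol. Its log2 fold change was 0.26 ± 0.20 (SE) without the covariates and 1.20 ± 0.25 with them. Tsc22d3, which encodes the leucine zipper GILZ, was at 89.6, 63.9 and 80.4 CPM against 87.0, 106 and 91.6 CPM, a log2 fold change of 0.28 ± 0.13 (SE) and of 0.68 ± 0.17 with the covariates. Cdkn1a, a cell cycle inhibitor, was at 7.25, 11.4 and 7.52 CPM against 7.61, 34.9 and 14.2 CPM and was high in acute ethanol 4 and near the saline level in acute ethanol 3. Acute saline 2 held the highest saline level of Sgk1 and Tsc22d3 and also the highest thalamic, choroid and myelin levels.

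In dHPC, where 5 of the 7 libraries came from the same mice as vHPC libraries, all 16 genes were higher with ethanol at an edgeR p below 0.05 (3.68% of all genes in that direction), with a median of 0.52. Fkbp5 had a log2 fold change of 0.42, Sgk1 0.92, Tsc22d3 0.74 and Cdkn1a 1.74 there. In chronic vHPC, 12 of the 16 were above 0, with a median of 0.15, and 3 were higher at p below 0.05 (4.96% of all genes in that direction). Fkbp5 was at a log2 fold change of 0.03 ± 0.11 (SE) after chronic ethanol, and the unadjusted p of the difference from the acute effect was 0.0095 in edgeR's interaction test across all genes, and it did not pass an FDR of 0.1. Plin4, a lipid droplet protein, had a log2 fold change of 1.89 after chronic and 0.82 after acute ethanol, with an unadjusted interaction p of 0.042 in the same edgeR test, and it did not pass an FDR of 0.1 either. Its level, normalized over the 12 libraries, was 25.3, 16.3 and 16.5 CPM in chronic ethanol and 24.4, 40.7 and 30.4 CPM in acute ethanol. The saline libraries were at 3.39, 8.08 and 4.16 CPM in the chronic and 16.1, 26.6 and 11.2 CPM in the acute group, so the larger chronic fold went with a lower saline level.

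Mt1 and Mt2 were higher in every acute ethanol library. Mt1 (chromosome 8, 94905710 to 94906955, plus strand, GRCm39) was at 136, 143 and 134 CPM in acute saline and 177, 223 and 212 CPM in acute ethanol. Mt2 (chromosome 8, 94899292 to 94900192, plus strand, GRCm39) was at 89.7, 92.2 and 79.9 CPM in acute saline and 124, 139 and 150 CPM in acute ethanol. Neither overlapped. The log2 fold change was 0.57 ± 0.10 (SE; DESeq2 FDR 0.00035) for Mt1 and 0.65 ± 0.10 (SE; DESeq2 FDR 3.34e-05) for Mt2. With the covariates the values were 0.48 ± 0.19 and 0.61 ± 0.26. In dHPC they were 0.48 ± 0.10 and 0.53 ± 0.11, and after chronic ethanol in vHPC 0.09 ± 0.14 and 0.13 ± 0.19.

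The rest of the zinc list was less even. Mt3, the metallothionein of neurons and astrocytes, was at 219, 205 and 229 CPM against 226, 245 and 249.1 CPM and overlapped. Mtf1, the metal-sensing transcription factor, had a log2 fold change of 0.09 ± 0.10 (SE). Slc30a3, the transporter that loads zinc into the vesicles of mossy fibres, was at 26.2, 43.2 and 24.1 CPM against 65.9, 51.5 and 77.6 CPM and was called by DESeq2 (log2 fold change 1.06, FDR 0.001), but was at 0.02 ± 0.19 with the covariates. Over the 8 genes the median was 0.14 and 3 were called higher by DESeq2 (1.68% of all genes).

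**Figure D4:**
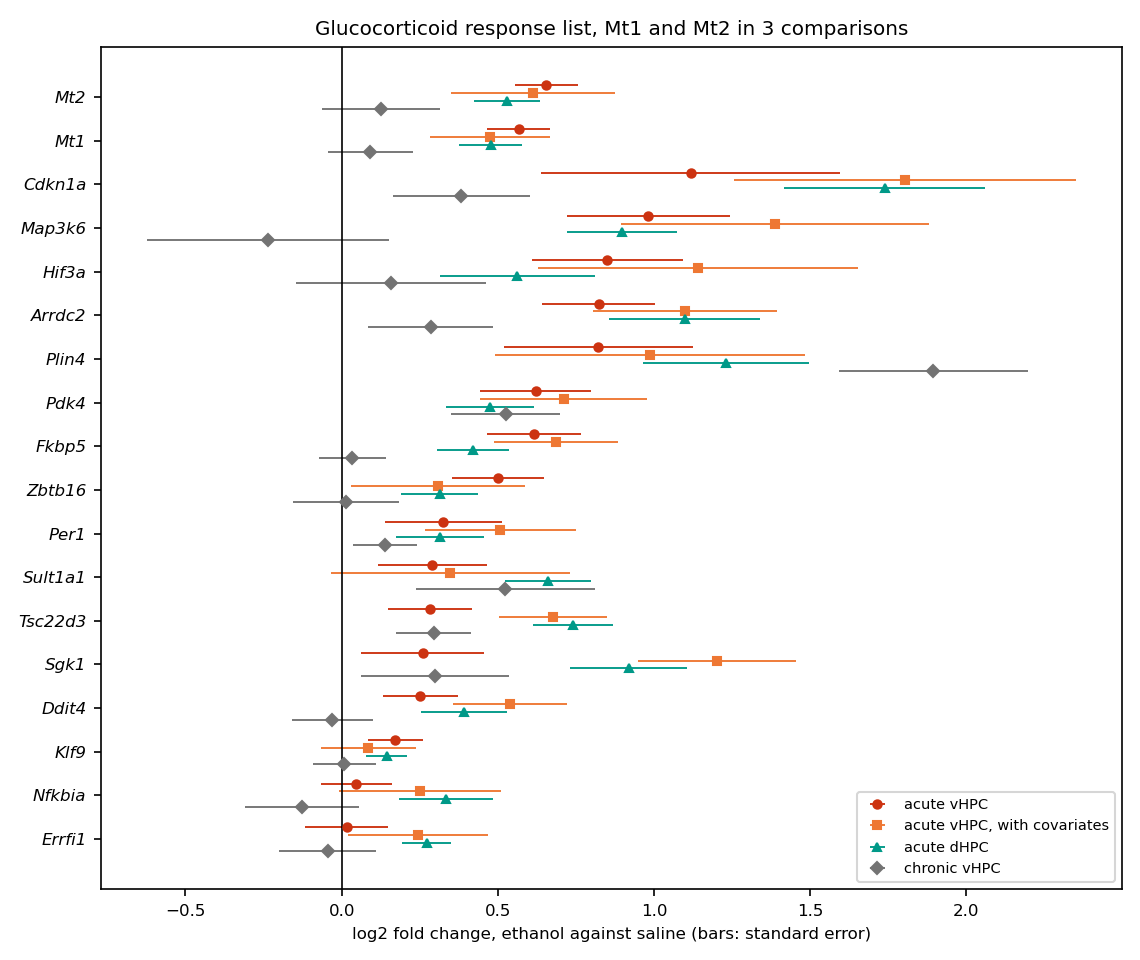
Log2 fold change of ethanol against saline (x axis; bars are standard errors) for the 16 glucocorticoid response genes and Mt1 and Mt2 (y axis) in acute vHPC without and with covariates, acute dHPC and chronic vHPC. The acute values lie to the right of 0, and the chronic values of Fkbp5, Mt1 and Mt2 lie at 0.03, 0.09 and 0.13.

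The promoters of Mt1 and Mt2 are shown because both genes were higher together and both are known to answer metals and glucocorticoids. The stretches below are the 250 bases before each start site, 5′ to 3′ on the gene's strand, from RefSeq's GRCm38.p6 table, a different build from that of the counts. Capitals mark matches, on either strand, to the metal response core TGCGCNC or TGCACNC, or to the pair GNACA and TGTNC set 3 bases apart, the 2 arms of a glucocorticoid response element.
Mt1, chr8:94178839-94179088, plus strand: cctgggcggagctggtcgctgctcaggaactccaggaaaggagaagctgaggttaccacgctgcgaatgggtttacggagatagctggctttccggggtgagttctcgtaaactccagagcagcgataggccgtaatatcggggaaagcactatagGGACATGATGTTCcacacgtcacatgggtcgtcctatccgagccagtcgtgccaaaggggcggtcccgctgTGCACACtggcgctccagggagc
Mt2, chr8:94172368-94172617, plus strand: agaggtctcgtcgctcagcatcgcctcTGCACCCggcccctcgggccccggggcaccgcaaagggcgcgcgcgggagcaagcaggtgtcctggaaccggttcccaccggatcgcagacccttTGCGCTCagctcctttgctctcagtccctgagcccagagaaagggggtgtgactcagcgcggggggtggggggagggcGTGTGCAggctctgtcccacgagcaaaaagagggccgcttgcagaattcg
In the Mt1 window of 300 bases, which runs 50 bases past the start, there were 3 metal cores and 1 glucocorticoid pair that begins 94 bases before the start. The Mt2 window held 4 metal cores and no glucocorticoid pair. A metal core of either kind was found in 25.7% of 32851 promoters of that length and the glucocorticoid pair in 0.475%. Of the glucocorticoid list, 15 of 16 genes had a promoter in the table, 5 with a metal core and 2, Sgk1 and Map3k6, with a glucocorticoid pair. A gene was counted if any of its promoters matched, and Sgk1 had 6 promoters. The shares of 25.7% and 0.475% are per promoter, so these gene counts cannot be set against them. The Fkbp5 window held neither motif. The matches are letters in a window and no binding was measured.

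Genes induced by neuronal activity gave a mixed picture. Of 24, 18 had a positive log2 fold change (median 0.22), and 6 were higher and 1 lower at an edgeR p below 0.05 (6.25% and 5.67% of all genes). DESeq2 called 2 higher and 1 lower (1.68% and 1.23% of all genes). Nr4a1, an orphan nuclear receptor of the immediate early class, was at 40.3, 40.3 and 55.4 CPM in acute saline and 92.0, 75.8 and 54.8 CPM in acute ethanol (log2 fold change 0.71 ± 0.20, SE; DESeq2 FDR 0.0263). Acute ethanol 5 lay within the saline range. Egr4, a zinc finger early gene, was at 17.8, 15.2 and 28.8 CPM against 41.1, 36.0 and 25.6 CPM and also overlapped, and Nr4a3 was lower without overlap, though by little in acute ethanol 3, at 93.0, 101 and 124 CPM against 92.9, 68.4 and 65.7 CPM. Fos was at 20.5, 16.7 and 24.4 CPM in acute saline and 17.3, 18.5 and 11.4 CPM in acute ethanol, and Arc, a dendritic immediate early gene, at 117, 104 and 139 CPM and 221, 135 and 145 CPM. Neither Fos nor Arc was called. The list median was 0.07 without acute ethanol 3 and 0.08 without acute saline 2. In acute saline 6 this list was the highest of the saline libraries, at 1425 CPM in sum against 1043 and 1077 CPM.

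Glutamate receptor and postsynaptic genes were mixed. Of 17 ionotropic receptor subunits 10 were above 0 (median 0.13). At an edgeR p below 0.05, 2 were higher and 2 lower (6.25% and 5.67% of all genes). DESeq2 called Gria1 higher and Gria4 lower (1.68% and 1.23% of all genes). Gria1, the main AMPA receptor subunit of hippocampal pyramidal neurons, was at 768, 840 and 973 CPM in acute saline and 1194, 944 and 1422 CPM in acute ethanol, with acute ethanol 4 inside the saline range. Gria4, a subunit of interneurons and thalamic neurons, was at 75.3, 62.6 and 59.5 CPM against 49.5, 53.9 and 37.4 CPM. DESeq2 called 3 of 13 AMPA receptor auxiliary subunits and pentraxins, all higher (1.68% of all genes). They were Cacng3, a TARP, Cnih3, a cornichon, and Shisa7, at log2 fold changes of 0.55, 0.90 and 0.71. With the covariates these were -0.07, 0.53 and 0.22.

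Of 7 metabotropic receptor genes DESeq2 called 1, as higher (1.68% of all genes), and the list median was 0.04. Grm2, a presynaptic metabotropic receptor of mossy fibres, was at 25.0, 40.7 and 21.6 CPM against 66.9, 47.7 and 71.9 CPM (log2 fold change 1.09, and -0.13 with the covariates). Of 8 voltage-gated calcium channel genes DESeq2 called 1, as higher, and the median was 0.13. Cacna1h, a T-type calcium channel, was at 83.3, 97.9 and 101 CPM against 158, 136 and 175 CPM (0.73, and 0.13 with the covariates). Of 13 postsynaptic scaffold genes, 10 were above 0, with a median of 0.19, and DESeq2 called 1 as higher (1.68% of all genes), Dlg3 (0.45). The median was 0.07 without acute saline 4, 0.09 without acute ethanol 3, 0.31 without acute saline 6 and 0.37 without acute ethanol 4. After chronic ethanol in vHPC, 12 of these 13 were below 0, with a median of -0.28, and the difference between the acute and the chronic effect had an edgeR p below 0.05 for 10 of the 13 without and 7 with the covariates, against 11.5% and 7.92% of all genes. For Dlg4, which encodes PSD-95, the log2 fold change was 0.33 ± 0.12 (SE) after acute and -0.26 ± 0.10 after chronic ethanol. The list sum, normalized over the 12 libraries, was 3631 to 4462 CPM in acute saline, 3906 to 4867 CPM in acute ethanol, 4380 to 4825 CPM in chronic saline and 3392 to 3927 CPM in chronic ethanol, so chronic saline lay mostly above acute saline. No single scaffold gene passed an FDR of 0.1 in the interaction test of edgeR.

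Chaperones of the endoplasmic reticulum had lower values after acute ethanol and higher values after chronic ethanol, each against its own saline group. Of 20 unfolded protein response genes 18 had a negative log2 fold change (median -0.16, and -0.24 without acute saline 4). At an edgeR p below 0.05, 6 were lower (5.67% of all genes), and 6 were lower without overlap (8.8% of all genes). DESeq2 called 0 of the 20 (2.9% of all genes). The list sum, normalized over the 12 libraries, was 1662 to 1957 CPM in acute saline and 1507 to 1541 CPM in chronic saline, so the saline groups themselves stood apart, and acute ethanol, at 1537 to 1625 CPM, lay near chronic saline. Hspa5, which encodes the chaperone BiP, was at 272, 199 and 284 CPM in acute saline and 202, 208 and 174 CPM in acute ethanol, and overlapped. Hsp90b1, its HSP90 partner, was at 345, 290 and 298 CPM against 246, 271 and 241 CPM without overlap. After chronic ethanol 15 of the 20 were above 0 (median 0.27), with Hspa5 at 0.69 and Hsp90b1 at 0.27 against -0.37 and -0.30 after acute ethanol. The difference had an edgeR p below 0.05 for 10 of the 20 without and 11 with the covariates (11.5% and 7.92% of all genes), and the choroid plexus list, rich in secretory cells, had a chronic median of 4.08, whose part in these values was not tested.

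Among 13 cytosolic and mitochondrial chaperones, 12 were below 0 (median -0.31). DESeq2 called 2 as lower (1.23% of all genes), Hsp90aa1, at 1221, 1042 and 1204 CPM against 829, 904 and 838 CPM, and Dnaja1. With the covariates these were at -0.09 and -0.10 on the log2 fold change scale. The 13 mitochondrially encoded messenger RNAs were all below 0 (median -0.28) and 12 did not overlap, where 8.8% of all genes were lower without overlap. DESeq2 called 5 of them as lower (1.23% of all genes). The median was -0.16 without acute saline 2, and also -0.16 with the covariates, where 2 of the 13 were lower at an edgeR p below 0.05 (1.7% of all genes) against 8 without them (5.67% of all genes). Their sum was 53283, 44461 and 47609 CPM in acute saline and 42237, 41352 and 39193 CPM in acute ethanol. Of 24 splicing regulators, with a median of -0.03, DESeq2 called 2 as lower (1.23% of all genes), Elavl2 and Elavl4. Elavl4, the RNA-binding protein HuD, was at 52.1, 47.6 and 49.5 CPM against 36.3, 31.6 and 30.5 CPM and its log2 fold change of -0.60 ± 0.10 (SE) was -0.55 with the covariates. Tef, a clock output factor, was the only DESeq2 call of 12 clock genes (1.68% of all genes called higher), higher by 0.33 on the log2 scale.

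DESeq2 called no member of 7 further lists, where it called 2.9% of all genes. In lists this short, no call lies near that share. These were the GABA-A receptor subunits (12 genes), ethanol-sensitive potassium channels (8), neurotrophins (7), opioid system genes (8), stress peptides (8), p53 targets (7) and ethanol and acetate metabolism genes (7 of 9 tested, since Adh1 and Cyp2e1 were too low). Their median log2 fold changes lay between -0.08 and 0.17. Among glia, DESeq2 called 1 of 10 astrocyte markers as lower (1.23% of all genes), the water channel Aqp4. It also called 1 of 5 oligodendrocyte precursor markers as lower, Lhfpl3. The medians of these lists were 0.05 and 0.01, with 6 of the 10 and 3 of the 5 above 0. None of 11 microglial genes was called (2.9% of all genes).

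**Figure D5:**
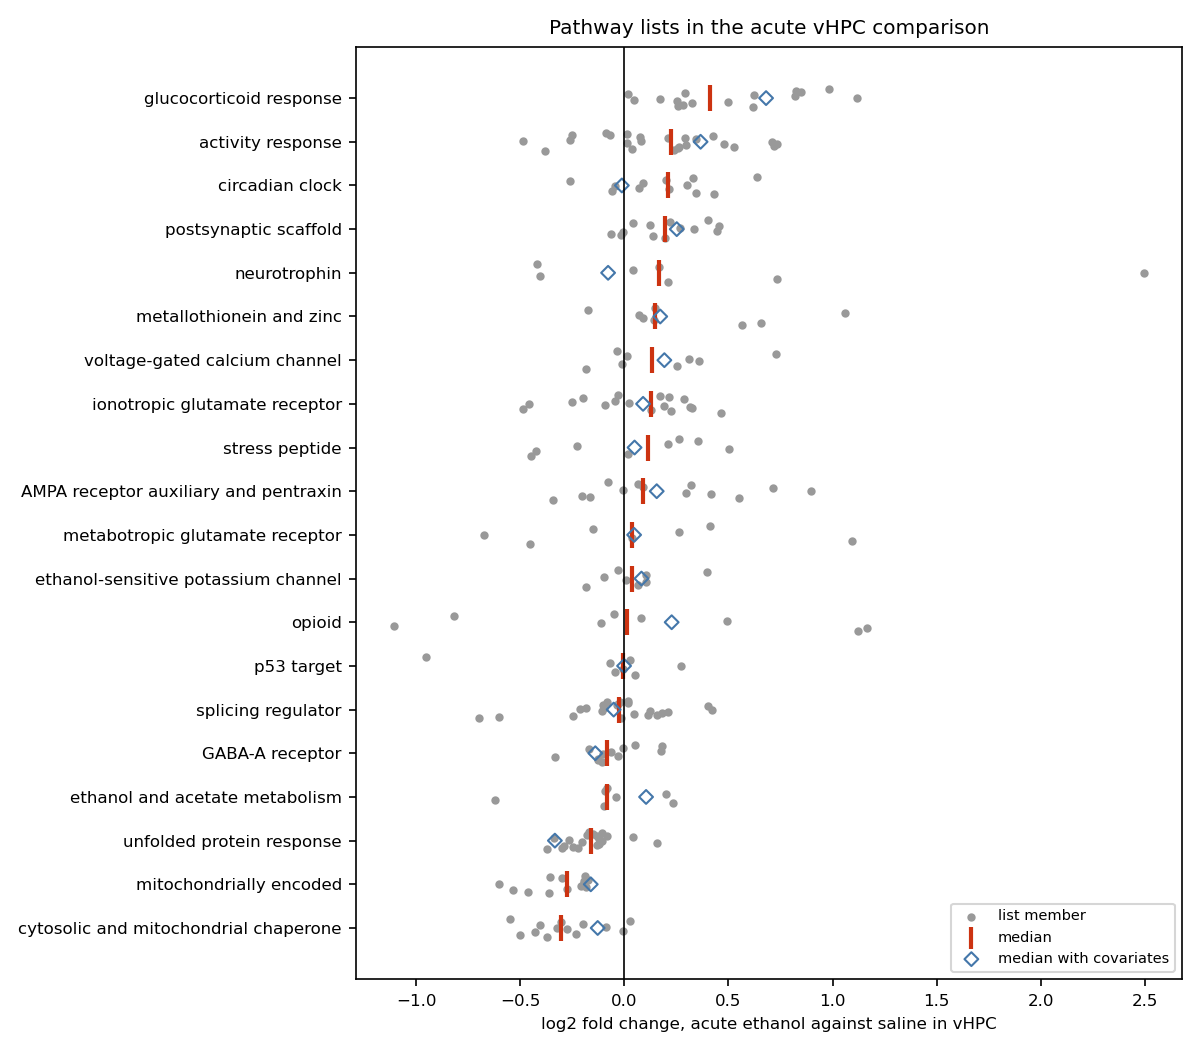
Log2 fold change of acute ethanol against acute saline in vHPC (x axis) of the members of 20 pathway lists (y axis); grey points are genes, red bars list medians, and blue diamonds list medians with thalamic and dentate covariates. The glucocorticoid response list has the highest median, 0.41, with every member above 0, and the chaperone list the lowest, -0.31.

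At isoform level, edgeR again called 0 of 107301 isoforms, with 11761 at an unadjusted p below 0.05 (11% of isoforms), and DESeq2 called 1775 (1.65%), 1045 higher (0.974%) and 730 lower (0.68%). A read pair on an exon shared by isoforms was counted for each of them, so isoforms of a gene are not independent. The called isoforms belonged to 636 genes, of which 477 were also called as genes. All 11 Fkbp5 isoforms were higher, 9 of them called, and all 14 Elavl2 isoforms were lower, 11 of them called. All 3 Mt1 and both Mt2 isoforms were called higher.

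Tiam1, a Rac1 activator of dendritic spines, was not called as a gene (log2 fold change 0.30), but several short isoforms were higher without overlap. Tiam1-206, a transcript with no defined coding sequence (chromosome 16, 89695239 to 89757625, minus strand, GRCm39), was at 1.32, 1.46 and 1.12 CPM in acute saline and 3.01, 2.22 and 3.31 CPM in acute ethanol (log2 fold change 1.13 ± 0.21, SE; DESeq2 FDR 0.0054). Tiam1-205 and Tiam1-212 had identical counts in every library and so carry 1 measurement between them. For Tcf4, a basic helix-loop-helix factor, all 62 isoforms had a positive log2 fold change (median 0.44) and 29 were called, while the gene was at 0.21. Among the lower isoforms of genes not themselves called were App-205, a retained intron of the amyloid precursor gene, at 156, 136 and 141 CPM against 111, 118 and 111 CPM, and Wnk1-217 at 5.77, 5.38 and 4.82 CPM against 3.93, 3.38 and 2.77 CPM. The App and Wnk1 genes had log2 fold changes of -0.06 and -0.20. Only 3 of 11 App and 2 of 26 Wnk1 isoforms were above 0.

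The acute effect differed between vHPC and dHPC for 1 gene at an FDR of 0.1 in edgeR's interaction test, Kcnj4, out of 26246 (0.00381%), with 2813 at an unadjusted p below 0.05 (10.7%). That test held no term for mouse, although some mice gave both a vHPC and a dHPC library. Normalized over the 13 libraries, Kcnj4 was at 37.5, 45.6 and 42.3 CPM in vHPC acute saline and 74.2, 75.3 and 67.0 CPM in vHPC acute ethanol. In dHPC it was at 81.9, 85.3 and 76.7 CPM in acute saline and 60.5, 67.9, 56.1 and 67.3 CPM in acute ethanol. The vHPC libraries were all higher and the dHPC libraries all lower with ethanol, and the difference of the log2 fold changes was 1.16 ± 0.13 (SE; edgeR FDR 0.00542). Gng7, a G protein subunit, Dclk3 and Lmo7 followed at an edgeR FDR of 0.1005. DESeq2 called 591 genes (2.25%) and limma voom with mouse as a block 150 (0.572%). With the mouse block the Kcnj4 difference was 1.17 (limma voom FDR 0.00245). All 10 thalamic markers had a higher ethanol value in dHPC (median 0.73) and a lower one in vHPC, and the part of this in the interaction values was not tested.

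No gene differed between the acute and the chronic effect in vHPC at an FDR of 0.1 in edgeR, where 2381 of 20618 had an unadjusted p below 0.05 (11.5%), and DESeq2 called 417 (2.02%). The smallest p belonged to Camk2d, which encodes the delta subunit of CaM kinase II. Normalized over the 12 libraries, Camk2d was at 56.0, 44.3 and 41.7 CPM in acute saline and 26.1, 30.5 and 22.1 CPM in acute ethanol, and at 27.7, 28.6 and 30.1 CPM in chronic saline and 34.9, 33.1 and 33.9 CPM in chronic ethanol. Dagla, which makes the endocannabinoid 2-AG, was at 179, 164 and 141 CPM and 198, 181 and 235 CPM after acute saline and ethanol, and at 246, 226 and 232 CPM and 174, 147 and 174 CPM after chronic saline and ethanol. In Camk2d the chronic saline libraries lay within the acute ethanol range and below the acute saline libraries, and in Dagla the acute saline libraries lay below the chronic saline libraries.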

How the data were processed

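Raw counts per gene and per isoform were deposited by the authors. Per the labels and methods, reads were trimmed with Cutadapt 5.0, aligned to GRCm39 (Ensembl annotation) with STAR 2.7.10a and counted with featureCounts 2.0.6. All libraries were counted as reverse-stranded, although the dHPC kit does not mark strand, and multimapping and multi-overlapping pairs were counted for each feature. The authors' unit was kept as raw counts and no other deposited column was used. A feature was tested where 2 or more libraries of 1 group held 5 or more counts, with edgeR 4.0.16 (TMM, quasi-likelihood) as the main test and DESeq2 1.42.0, the study's test, as an alternative, with Benjamini-Hochberg FDR 0.1. DESeq2 gave no adjusted p for 6953 genes. limma served for the mouse block. Depth was even across the 6 libraries and intervals cover the spread between mice. Named genes were the 10 largest DESeq2 or edgeR calls in each direction (mean of at least 50 counts, no overlap, no predicted-gene name), the 10 lowest edgeR p-values, the 5 lowest p in each direction with covariates and for isoforms, the 5 lowest p of each interaction, and members of 21 marker and 20 pathway lists. Members and lists were chosen with earlier results of these data known. 1 gene that the rule names is not reported here. Scripts were tested on simulated data.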

Additional observations from a re-analysis of the deposited data

Results flagged for a closer look

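Kcnj4 was marked for a closer look because its acute ethanol effect differed between vHPC and dHPC by a test of the difference itself, with a difference of 1.16 in log2 fold change (edgeR FDR 0.00542). That test held no term for mouse, and with mouse as a block the difference was 1.17 (limma voom FDR 0.00245). The dHPC log2 fold change was -0.37 ± 0.07 (SE) and the vHPC value 0.79 ± 0.10. The vHPC value was 0.29 ± 0.31 with the thalamic and dentate covariates. Region goes with library kit and sequencer, which cannot be told apart from region in the level but are the same within each ethanol against saline contrast.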

How the results depend on the processing

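No paired analysis was possible because the 2 acute vHPC groups share only replicate number 4, which came from different mice. The fits with covariates other than the planned 12-library edgeR fit, and the single-library omissions with DESeq2, were chosen after seeing the data. For genes, the edgeR count of 0 became 578 with DESeq2, 616 with DESeq2 on all 4 vHPC groups, 263 with no filter on low counts, 23 with the thalamic level as the only covariate and 1 with DESeq2 and both covariates, and stayed at 0 with DESeq2 size factors, a minimum of 10 counts in every library, all 4 groups in 1 edgeR fit, or that fit with both covariates. For isoforms it became 1775 with DESeq2 and 1045 with no filter. Over single-library omissions, genes ran from 0 to 1465 and isoforms from 0 to 4303 over both tools. For the region difference the edgeR count of 1 became 591 with DESeq2 and 150 with limma and mouse as a block, and for the paradigm difference the count of 0 became 417 with DESeq2 and stayed at 0 with both covariates. Each omission left 2 libraries in that group and 3 in the other, with the spread pooled over both. The cause of these differences was not tested.

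With both covariates, list medians of log2 fold change moved beyond the spread between libraries for 16 of the 41 lists. The values were dentate 0.0012, thalamic 0.029, CA2 0.23, CA3 0.22, subiculum and entorhinal -0.72, neocortical -0.31, interneuron 0.37, dorsal pole 0.54, endothelial -0.049, glucocorticoid response 0.68, AMPA receptor auxiliary 0.16, neurotrophin -0.078, ethanol and acetate metabolism 0.10, unfolded protein response -0.33, cytosolic and mitochondrial chaperone -0.13 and circadian clock -0.012. The thalamic and dentate values near 0 follow from the construction of that fit. Over single-library omissions, medians ran from -2.57 to -0.52 (thalamic), -0.79 to 1.25 (striatal, negative without acute ethanol 4), -0.36 to 0.36 (CA2), -0.42 to -0.27 (CA3), -0.20 to 0.22 (neocortical), -0.25 to -0.036 (endothelial), -0.079 to 0.086 (astrocyte), 0.065 to 0.11 (microglia), 0.29 to 0.54 (glucocorticoid response), 0.079 to 0.19 (AMPA receptor auxiliary), -0.15 to 0.0072 (GABA-A), 0.093 to 0.26 (calcium channel) and 0.068 to 0.37 (postsynaptic scaffold).

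Named genes that changed sign were Bok (0.39 with edgeR and DESeq2), Cpne4 (0.11 with both), Nectin3 (0.027 and 0.029), Nr4a3 (0.13 with both), Grm2 (-0.13 with both), Trpc6 (-0.83 and -0.84) and Fos (0.53 and 0.49) with both covariates. Cacng3 was at -0.073 and -0.072. Irag1 was at 0.0022 and 0.0037 there and at 0.21 with the thalamic level alone, Thbs4 at -0.0026 with DESeq2 and both covariates, and Scube1 at -0.15 with the thalamic level alone. Trpc6 is a member of the dentate list, so its covariate value is taken against a level that it helped to set.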

Other observations

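The fit with thalamic and dentate covariates put genes at its head that did not head the comparison without covariates. Of them, Xdh, Ppp1r3g and Cdh20 were also DESeq2 calls without covariates, at FDRs of 0.027, 0.082 and 0.094. Xdh, which encodes xanthine dehydrogenase, was at 8.18, 6.35 and 7.52 CPM in acute saline and 12.7, 14.1 and 10.8 CPM in acute ethanol, with a log2 fold change of 0.77 ± 0.18 (SE) without and 1.36 ± 0.28 with the covariates. Ppp1r3g, a glycogen-targeting phosphatase subunit, was at 4.03, 4.23 and 6.10 CPM against 10.2, 8.26 and 7.11 CPM, and at 0.83 and 1.39. Scube1 had values of 0.28 and 1.21, and its groups overlapped. Nrep, a neuronal regeneration protein, was at 38.4, 45.6 and 28.0 CPM against 28.1, 28.4 and 27.2 CPM, with log2 fold changes of -0.42 and -1.05, and Cdh20, a cadherin, was at -0.57 and -0.94. Zfp267 and Ddit4l were at -0.74 and -1.23 with the covariates. The edgeR FDR of each was 0.998 in that fit, so none passed. Over the chronic vHPC libraries, the correlation with the dentate level was -0.79, -0.77 and -0.86 for Xdh, Ppp1r3g and Scube1. It was 0.96, 0.98, 0.61 and 0.82 for Nrep, Cdh20, Zfp267 and Ddit4l. The dentate level did not overlap between the acute groups, and its part in these covariate values was not tested.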
